A study of Mus musculus with 36 samples.

Results

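The collagen chain genes are the genes whose symbol is Col, a collagen type number, a and a chain number, such as Col1a1. They were found by that pattern in the gene names of the array, and each gene was read by its probe with the highest mean signal over all 36 arrays. This gave 44 of the 37325 genes on the array, from 91 probes.

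RNA was measured in the livers of male C57Bl/6J mice on 36 single-colour Agilent arrays, 6 for each of 6 groups. AAKO mice lack ATGL, the lipase encoded by Pnpla2 that starts the breakdown of stored triglyceride, in white adipose tissue, and CTRL mice are their controls. The study asks how the liver responds to fasting and to stimulated lipolysis when adipocytes lack this lipase. CTRL fed and AAKO fed mice had free access to standard diet. CTRL fasted and AAKO fasted mice were deprived of food for 24 h. CTRL CL316243 and AAKO CL316243 mice were fed and received, by gavage, 3 mg/kg of CL316243, which activates the beta 3 adrenergic receptors of adipocytes, at Zeitgeber time (ZT) 10. All mice were killed at ZT 16, in the dark phase. The labels do not name the promoter that drove the deletion, the age of the mice, or whether each array is a separate mouse, so p-values measure the spread between these samples.

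The fed groups belong to experiment 2 and the other groups to experiment 1, so in every comparison with fed mice the condition and the experiment cannot be told apart. A gavage and a carboxymethyl cellulose vehicle are given for the CL316243 groups alone, so in comparisons with them the agonist, the gavage and the vehicle cannot be told apart. Between 35770 and 39868 of 59305 spots per array were well above background and 0 were saturated. A level below is the log2 signal of a probe with the 75th percentile of its own array set to 0, and a fold change is a difference of such levels ± its standard error in limma. Each group was spread over 2 batches of array washing named in the labels, called wash batches 1 and 2 here. The number of arrays limits the precision. A gene is called at a Benjamini-Hochberg adjusted p under 0.05 over all 24251 genes tested. In whole liver, fewer cells of a type and less RNA per cell cannot be told apart. Levels of different probes are not compared with each other.

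Collagens are triple helices of alpha chains in which glycine recurs at a fixed spacing, written Gly-X-Y, with X and Y often proline and hydroxyproline. Fibrillar types form the cables of connective tissue, type IV forms the sheet of basement membranes, type VI forms beaded filaments, and the fibril-associated collagens with interrupted helices (FACITs), multiplexins and transmembrane types bind fibrils, basement membranes or cells. In the liver, fibrillar collagens come chiefly from stellate cells and portal fibroblasts and accumulate in fibrosis, whereas type XVIII is also made by hepatocytes.

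The Gly-X-Y repeat can be read in some of the probes. 7 of 91 collagen probes (7.69%) held at least 4 glycine codons (GGN) at a spacing of 9 bases, against 39 of 56514 other probes (0.069%). The probes below are shown because they read genes described later and display the repeat. Capitals mark the glycine codons of the run. They are the chosen probes of Col15a1 (mm9 chr4:47283786-47283845, plus strand) and Col14a1 (mm9 chr15:55347733-55347792, plus strand), and the further probes of Col5a3 (mm9 chr9:20590066-20590795, minus strand) and Col6a3 (mm9 chr1:92689602-92690594, minus strand). The spans of the Col5a3 and Col6a3 probes, 730 and 993 bases, exceed the probe length of 60.
Col15a1: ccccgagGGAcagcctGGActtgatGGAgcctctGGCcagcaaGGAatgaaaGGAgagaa
Col14a1: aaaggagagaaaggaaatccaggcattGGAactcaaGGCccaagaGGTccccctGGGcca
Col5a3: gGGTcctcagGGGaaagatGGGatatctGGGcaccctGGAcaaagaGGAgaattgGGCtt
Col6a3: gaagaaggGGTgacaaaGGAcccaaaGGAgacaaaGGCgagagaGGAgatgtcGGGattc

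Of the 44 genes, 24 were well above background on all 36 arrays, 9 passed the filter (at least 5 of 6 arrays of a group) without being so on every array, and 11 did not pass. Those that did not pass were Col4a3 and Col4a6 of basement membranes, Col6a4 and Col6a6 of the beaded filament family, Col9a3 and Col10a1 of cartilage, Col19a1, Col23a1, Col24a1, Col25a1 and Col28a1. Col6a6, Col9a3, Col10a1 and Col28a1 were well above background on no array, and Col4a6 on 13, the most among those that did not pass. By class, 10 of 11 fibrillar chains passed, 4 of 6 type IV chains, 4 of 6 type VI chains, 7 of 9 FACITs, 2 of 4 transmembrane chains and 2 of 3 short chains. Both multiplexins (Col15a1 and Col18a1) and Col7a1 of anchoring fibrils passed, as did Col26a1. The genes just inside the filter were Col5a2 (16 arrays) and Col4a4 (20). The counts below concern the 33 genes that passed, not all members. The filter let Col2a1, Col5a2, Col8a2 and Col15a1 in only through groups in which they are called higher below, and Col4a4 only through the fasted groups, so their adjusted p-values are given from the fit with no filter on dim probes, over all genes. The counts of called genes below still include these genes unless the fit with no filter is named.

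**Figure D1:**
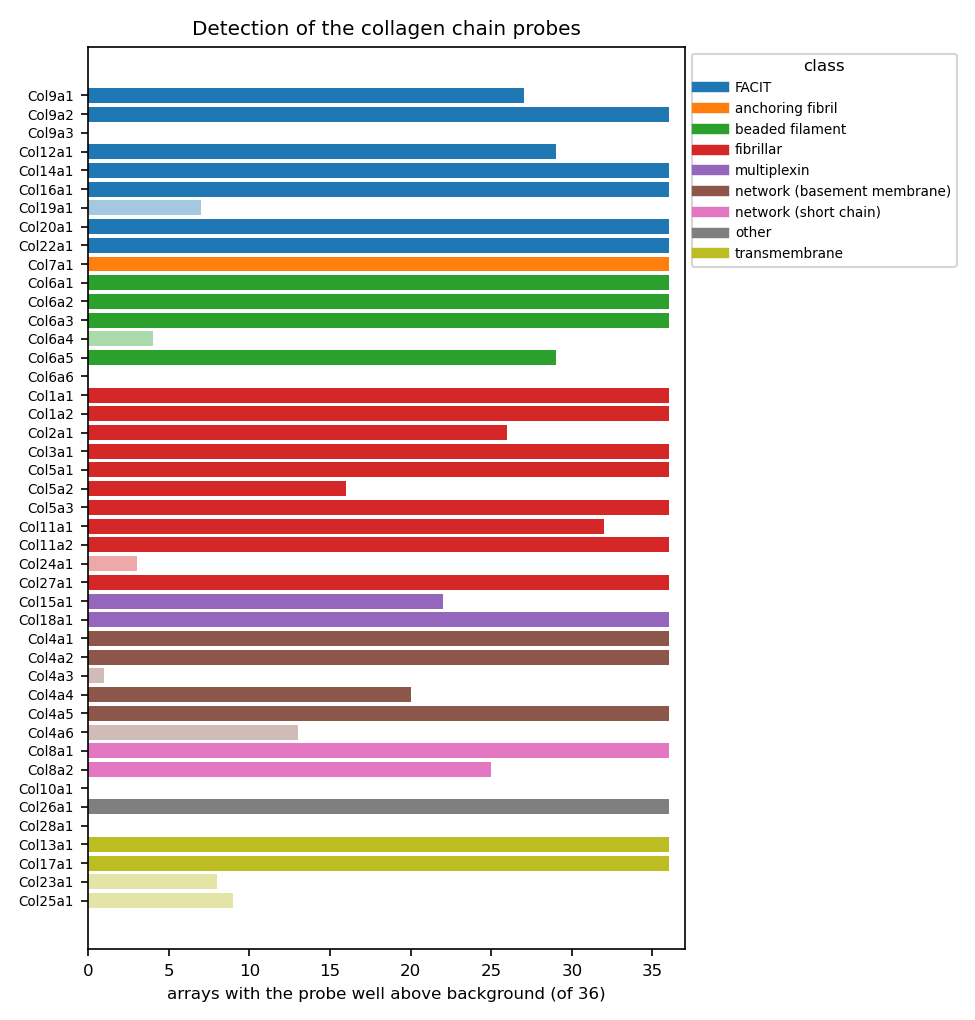
Number of the 36 arrays (x axis) on which the probe of each collagen gene (rows, coloured by class) was well above background, with pale bars for genes that did not pass the filter. 24 genes reach 36 arrays and 4 lie at 0.

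In fed mice the genotypes showed 0 called collagen genes, against 0.0783% of all genes tested, and 5 collagen genes had an unadjusted p under 0.05 in limma. In fasted mice 6 of 33 collagen genes were higher in AAKO and 3 lower, where 21.3% of all genes were called higher and 28.0% lower. The higher ones were Col4a1, Col4a2, Col5a2, Col13a1, Col14a1 and Col27a1, and the lower ones Col4a5, Col5a3 and Col18a1. After CL316243, Col5a2 and Col13a1 were higher in AAKO and Col5a3 lower (13.4% and 11.3% of all genes). The shares of collagen genes called in either direction were 27.3% in fasted and 9.09% in CL316243 mice, below the sums of those background shares. The split of fasted calls was 4 higher and 4 lower after normexp correction. It also turned with the wash batch, at 2 higher and 5 lower within wash batch 1 alone and 9 and 1 within wash batch 2 alone. The split after CL316243 was 1 and 1 when scaled to the array median or after normexp correction, and 0 and 2 in the authors' deposited table. Within wash batch 1 alone it was 1 and 1, and within wash batch 2 alone 0 and 4.

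Fasted against fed, 4 of 33 genes were higher and 5 lower in CTRL (background 20.9% and 22.4%). In AAKO 4 were higher and 10 lower (background 27.8% and 35.7%). With no filter on dim probes, fasted against fed gave 3 higher and 4 lower of 44 genes in CTRL and 4 and 9 in AAKO. CL316243 against fed gave 4 higher and 3 lower in CTRL (background 10.4% and 12.8%) and 3 and 4 in AAKO (background 15.7% and 15.7%). Fasted against CL316243, which lies within 1 experiment, gave 2 higher and 7 lower in CTRL (background 19.2% and 17.6%) and 4 and 11 in AAKO (background 26.2% and 33.8%). These comparisons share arrays, so each stands on its own. For fasted against CL316243 the median fold change of the collagen genes was -0.12 in CTRL and -0.11 in AAKO, against 0.0056 and -0.079 over all genes. The split depended on the scaling and on the wash batch in places. It was 2 higher and 5 lower for fasted against fed CTRL, 1 and 8 for fasted against CL316243 CTRL and 4 and 20 for fasted against CL316243 AAKO after normexp correction. In the authors' deposited table fasted against fed gave 5 and 3 in CTRL and 6 and 6 in AAKO, and fasted against CL316243 AAKO gave 6 higher and 4 lower. That last contrast turned with the wash batch, at 2 higher and 9 lower within wash batch 1 alone and 8 and 3 within wash batch 2 alone. CL316243 against fed AAKO gave 3 and 3 within wash batch 1 alone and 0 and 6 within wash batch 2 alone.

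The interaction tests ask whether the genotype difference itself differed between conditions. Between fasted and fed it was higher in the fasted state for 3 collagen genes (Col4a1, Col4a2 and Col13a1) and lower for 3 (Col5a3, Col12a1 and Col18a1), where 14.5% and 19.4% of all genes were called. Between CL316243 and fed it was higher for Col11a1 and lower for Col5a3 (background 6.34% and 4.52%), with 0 higher and 1 lower after normexp correction and in the authors' deposited table. Between fasted and CL316243 it was higher for Col4a1, Col4a2 and Col27a1 and lower for Col18a1 (background 12.7% and 19.6%), a split of 3 and 0 after quantile normalization and 4 and 0 in the authors' deposited table. Within wash batch 1 alone that split was 0 and 1, and within wash batch 2 alone 8 and 0. The fasted and fed interaction gave 1 higher and 2 lower within wash batch 1 alone and 4 and 1 within wash batch 2 alone. In the plot of fold changes over contrasts, Col5a3 and Col13a1 were called in 7 and 8 of the 9 contrasts between groups, whereas Col1a2, Col5a1, Col6a1, Col6a5, Col9a1, Col9a2, Col11a2, Col16a1, Col17a1, Col22a1 and Col26a1 were called in none.

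**Figure D2:**
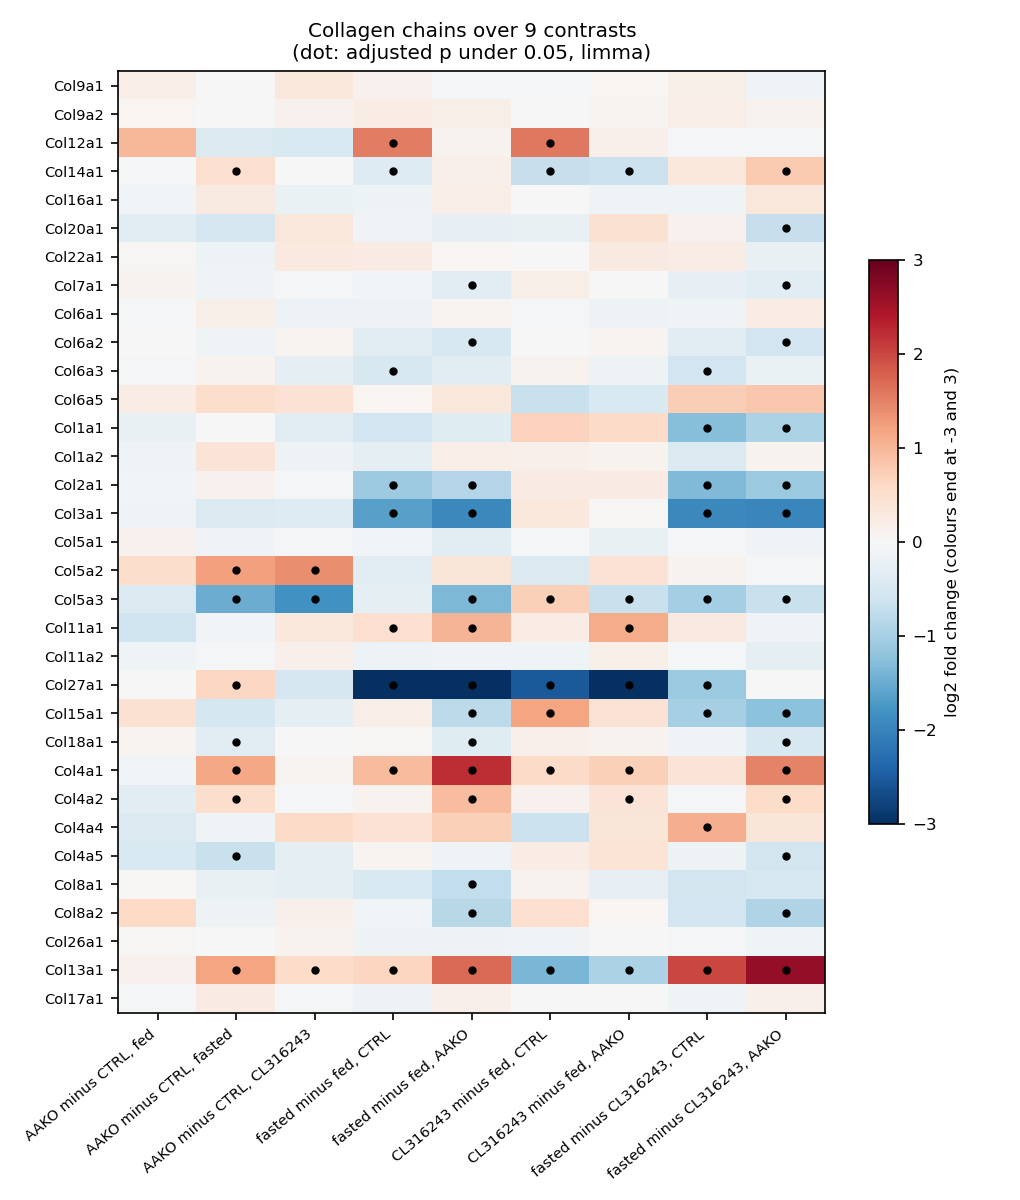
Log2 fold change (colour, ending at -3 and 3) of the 33 collagen genes that passed the filter (rows, by class) in the contrasts between groups (columns), with a dot where the adjusted p was under 0.05. Col27a1 is dark blue in all 4 contrasts with fed mice, and the fed genotype contrast on the left holds no dot.

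Among the major fibrillar chains, Col3a1 fell with fasting in both genotypes at its chosen probe. Col1a1 was lower in fasted than in CL316243 mice, and Col1a2 was not called in any contrast. Col3a1 encodes the homotrimeric type III collagen of reticular fibres and was read at mm9 chr1:45405589-45405648, plus strand. Its level ran from 0.53 to 1.42 (median 0.97) in CTRL fed and from 0.47 to 1.26 (median 0.89) in AAKO fed arrays. Its fasted range was -1.26 to -0.042 (median -0.57) in CTRL and -2.25 to 1.03 (median -1.07) in AAKO. The CL316243 range was 0.97 to 2.14 (median 1.17) in CTRL and 0.20 to 1.79 (median 0.59) in AAKO. All 6 CTRL fasted arrays lay below all CTRL fed and all CTRL CL316243 arrays. The AAKO fasted arrays spread widely and overlapped the other AAKO groups through replicate 1, the highest at 1.03, with replicates 3 and 6 lowest. Fasted against fed, the Col3a1 fold change was -1.62 ± 0.36 (adjusted p = 0.000364) in CTRL and -1.93 ± 0.36 (adjusted p = 1.91e-05) in AAKO. Fasted against CL316243 it was -1.93 ± 0.36 (adjusted p = 5.84e-05) in CTRL and -1.96 ± 0.36 (adjusted p = 1.81e-05) in AAKO, the latter -0.56 and not called within wash batch 2 alone. The genotypes differed by -0.42 ± 0.36 (adjusted p = 0.346) in fasted mice, which is not called. The further, dimmer probes of Col3a1 gave -1.48 and -1.1 for fasted against fed AAKO, both called. In CTRL they gave -0.46 and -0.41, neither called, so the fasting call in CTRL stood at the chosen probe alone. Between fasted genotypes they gave -1.14 and -0.96, both called, so the probes disagree on the genotype difference.

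Col1a1 and Col1a2 encode the alpha chains of type I collagen, the main protein of fibrous tissue. The Col1a1 probe (mm9 chr11:94813075-94813134, plus strand) ran from -1.45 to -0.56 (median -0.87) in CTRL fed and from -1.78 to -0.58 (median -1.18) in AAKO fed arrays. With fasting the range was -1.79 to -0.93 (median -1.64) in CTRL and -2.95 to 0.59 (median -1.44) in AAKO. Under CL316243 the values were -0.71 to 0.57 (median -0.34) in CTRL and -1.33 to 0.36 (median -0.75) in AAKO. The CTRL fasted arrays lay below all CTRL CL316243 arrays, and the AAKO fasted SD of 1.33 exceeded that of 0.34 in CTRL fasted mice. Fasted against CL316243, Col1a1 was lower in CTRL (-1.28 ± 0.39, adjusted p = 0.00931). Col1a1 was not called in CTRL within wash batch 1 alone (-1.12). In AAKO the difference was -0.94 ± 0.39 (adjusted p = 0.037), and the call was lost under several alternatives. Over all alternatives this difference ran from -1.99 to 0.54. Col1a1 was not called in AAKO in the authors' deposited table (-0.65), with no filter on dim probes (-0.94), in a fit of its own groups (-0.95) and within wash batch 2 alone (0.54). The Col1a1 call in AAKO was also lost on leaving out AAKO CL316243 replicate 2, 5 or 6 or AAKO fasted replicate 3, 4 or 6 alone (-0.91 to -0.66). Within wash batch 2 that AAKO difference had the opposite sign. Fasted against fed, Col1a1 gave -0.58 ± 0.39 (adjusted p = 0.243) in CTRL and -0.36 ± 0.39 (adjusted p = 0.434) in AAKO, neither called.

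The Col1a2 probe (mm9 chr6:4490619-4490678, plus strand) ran from 0.98 to 1.57 (median 1.22) in CTRL fed and from 0.85 to 1.47 (median 1.17) in AAKO fed arrays. In fasted mice it ran from 0.66 to 1.23 (median 0.98) in CTRL and from 0.66 to 2.36 (median 1.37) in AAKO. After CL316243 it ran from 1.05 to 1.99 (median 1.3) in CTRL and from 0.54 to 2.11 (median 1.16) in AAKO. All groups overlapped. Its fasted against fed fold changes were -0.29 ± 0.23 (adjusted p = 0.334) in CTRL and 0.20 ± 0.23 (adjusted p = 0.463) in AAKO, and the genotypes differed by 0.40 ± 0.23 (adjusted p = 0.161) in fasted mice. AAKO fasted replicate 1 was highest of its group for Col1a1 (0.59), Col1a2 (2.36) and Col3a1 (1.03). Without it the Col3a1 change in AAKO was -2.33 against fed mice and -2.34 against CL316243, and that of Col1a1 against CL316243 was -1.33, all called.

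**Figure D3:**
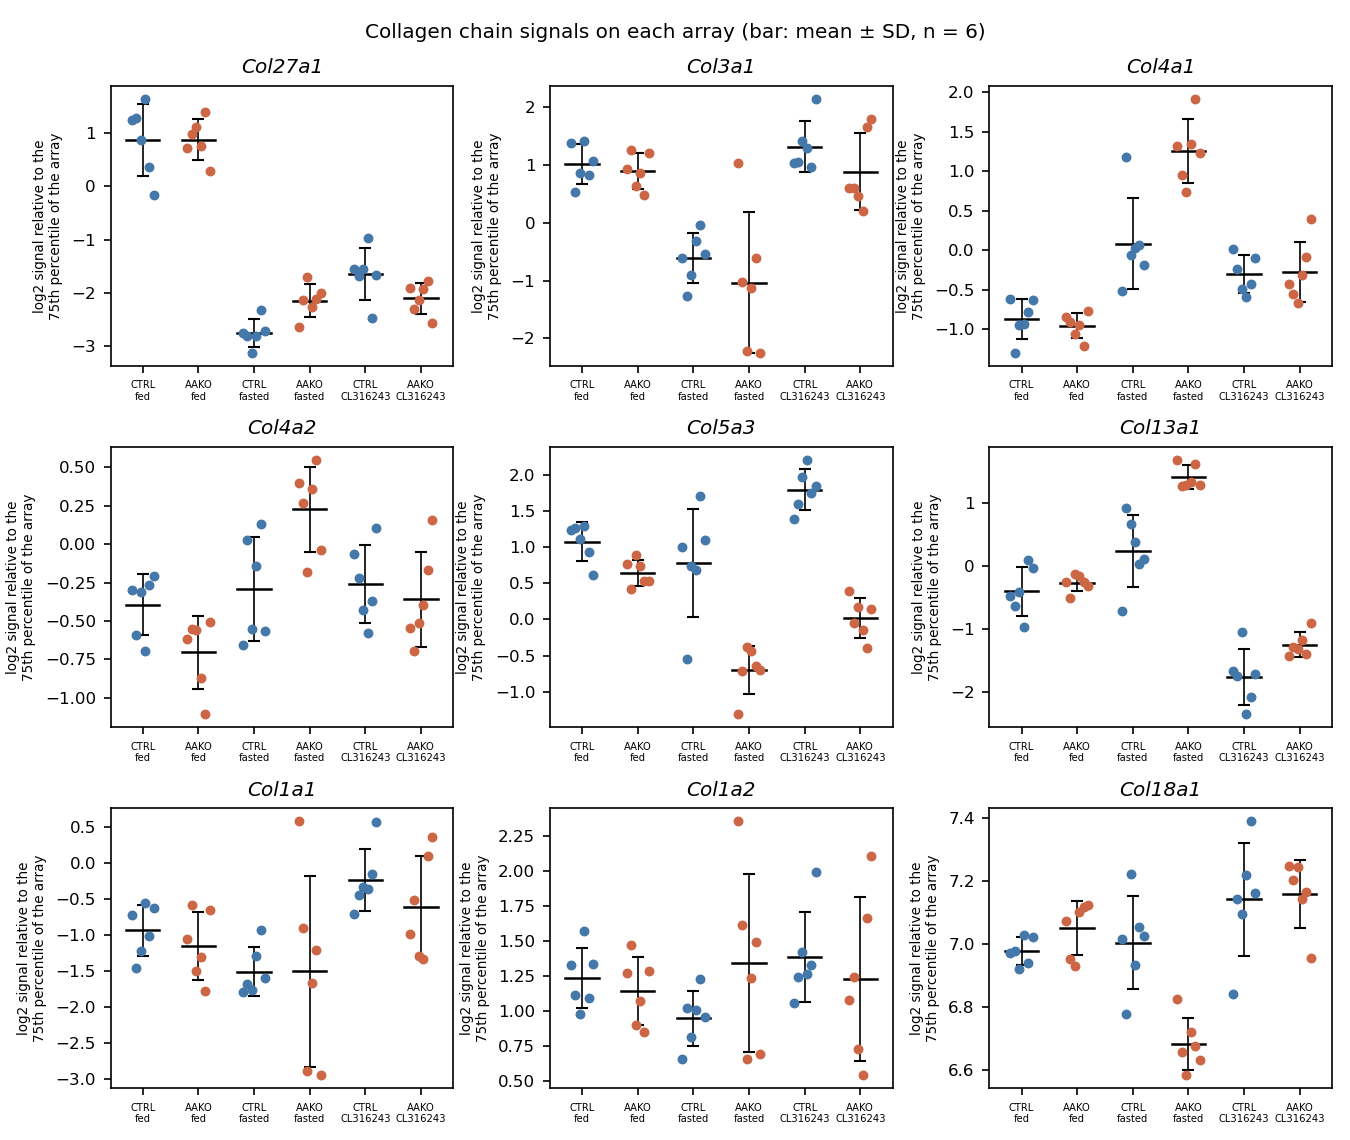
Level of 9 collagen probes on each array (points, blue for CTRL and orange for AAKO), with the mean and SD of the 6 arrays of each group (bars) on a y axis of log2 signal (the array's 75th percentile is 0), drawn separately for each gene. Col27a1 separates fed from all other groups, Col4a1 and Col13a1 are highest in AAKO fasted mice, and Col1a1, Col1a2 and Col3a1 spread most in AAKO fasted mice.

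Within groups, the type I and III chains moved together. The deviations of Col1a1 and Col1a2 from their group means over 36 arrays had a Pearson's r of 0.95 and a Spearman's rho of 0.951. For Col1a1 and Col3a1 r was 0.945 and rho 0.875. Col4a1 and Col4a2, which assemble into 1 molecule, had an r of 0.765 and a rho of 0.815. Col6a1 and Col6a2 had an r of 0.837 and a rho of 0.725. For these 4 of 6 pairs tested, the permutation p of r was 1e-05, the smallest that 100000 shuffles within groups can give, and 1.5e-05 after adjustment over the 6 pairs; the adjusted p of rho was 2e-05 for the pairs with Col1a1. Without the 2 arrays farthest from the median of the x axis, r was 0.939 for Col1a1 with Col1a2, 0.903 for Col1a1 with Col3a1, 0.757 for Col4a1 with Col4a2 and 0.763 for Col6a1 with Col6a2. Within wash batches 1 and 2, in the same order, r was 0.946 and 0.95, 0.924 and 0.942, 0.713 and 0.82, and 0.785 and 0.399. Col5a1 with Col5a2 had an r of -0.112 and a rho of -0.149 (adjusted permutation p 0.567 and 0.502), with the Col5a2 probe near background on most arrays. Col15a1 with Col18a1 had an r of 0.112 and a rho of 0.118 (adjusted permutation p 0.567 and 0.502). The points of a pair share the array, its scaling and its RNA.

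**Figure D4:**
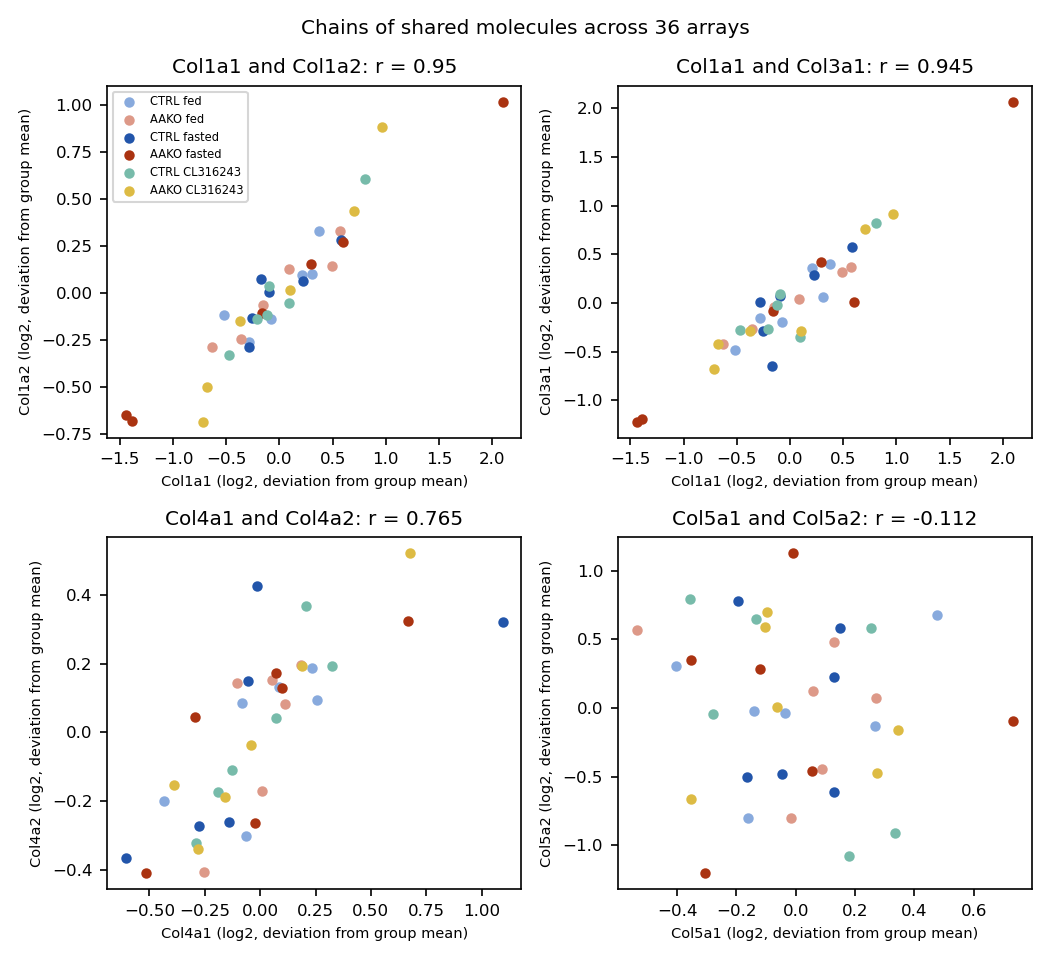
Deviation from the group mean of a collagen chain (x axis, log2) against that of its partner (y axis, log2) on 36 arrays, coloured by group. Col1a1 follows Col1a2 and Col3a1 closely, with AAKO fasted arrays at both ends, whereas Col5a1 and Col5a2 form a cloud (r = -0.112).

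Start windows of 250 bases before the transcript start were held for 35 of the 44 genes (RefSeq, GRCm38.p6), not among them Col1a1. They are shown for Col1a2 and Col3a1, whose signals deviated with that of Col1a1 across arrays, and for Col27a1. The differences of Col27a1 from fed mice, which hold the experiment as well as the condition, were the largest among the collagens. The windows were searched on both strands for the TATA box letters TATAAA, then for the CCAAT box, spelled CCAAT, and for the GC box, spelled GGGCGG, and capitals mark the matches. Col3a1 (GRCm38.p6 chr1:45311288-45311537, plus strand) held 1 TATAAA starting at -117 relative to the start. Col1a2 (GRCm38.p6 chr6:4505368-4505617, plus strand) held 1 CCAAT at -109 and 2 GGGCGG, the nearer at -188. Col27a1 (GRCm38.p6 chr4:63215162-63215411, plus strand) held 1 GGGCGG at -85. TATAAA was in 13.2% of 38 collagen windows and 12.4% of all 32851 windows. CCAAT was in 34.2% and 33.8%, and GGGCGG in 57.9% and 32.7%. These matches are descriptions of letters.
Col3a1: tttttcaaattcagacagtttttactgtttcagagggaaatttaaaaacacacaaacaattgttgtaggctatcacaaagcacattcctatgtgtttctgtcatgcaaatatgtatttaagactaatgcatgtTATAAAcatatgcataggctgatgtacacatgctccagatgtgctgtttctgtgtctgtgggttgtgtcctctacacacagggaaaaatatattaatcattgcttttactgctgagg
Col1a2: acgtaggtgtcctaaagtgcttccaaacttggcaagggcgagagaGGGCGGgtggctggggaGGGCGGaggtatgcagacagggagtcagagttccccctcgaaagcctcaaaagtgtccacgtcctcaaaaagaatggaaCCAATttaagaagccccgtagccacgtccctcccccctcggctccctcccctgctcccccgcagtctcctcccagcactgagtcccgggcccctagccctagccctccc
Col27a1: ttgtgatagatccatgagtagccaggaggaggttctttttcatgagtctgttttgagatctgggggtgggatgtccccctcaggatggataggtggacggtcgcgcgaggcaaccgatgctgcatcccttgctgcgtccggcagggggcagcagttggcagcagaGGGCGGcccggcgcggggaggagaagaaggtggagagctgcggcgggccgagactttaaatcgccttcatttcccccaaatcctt

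Col27a1, which encodes the short-helix fibrillar collagen XXVII of cartilage and other tissues, showed the largest fold changes of the set, which were its falls from the fed level. Its probe (mm9 chr4:62995485-62995544, plus strand) ran from -0.16 to 1.65 (median 1.06) in CTRL fed and from 0.28 to 1.39 (median 0.87) in AAKO fed arrays. Its fasted range was -3.13 to -2.32 (median -2.77) in CTRL and -2.65 to -1.7 (median -2.12) in AAKO. The CL316243 range was -2.48 to -0.96 (median -1.6) in CTRL and -2.57 to -1.78 (median -2.02) in AAKO. All fasted and all CL316243 arrays of a genotype lay below all its fed arrays. Fasted against fed, Col27a1 was 12.4-fold lower in CTRL (log2 -3.63 ± 0.23, adjusted p = 9.18e-14) and 8.11-fold lower in AAKO (log2 -3.02 ± 0.23, adjusted p = 6.2e-13). CL316243 against fed, it was 5.72-fold lower in CTRL (log2 -2.52 ± 0.23) and 8.1-fold lower in AAKO (log2 -3.02 ± 0.23). These falls hold the experiment as well as the condition. Within experiment 1, Col27a1 was lower in fasted than in CL316243 CTRL mice (-1.11 ± 0.23, adjusted p = 0.00024), and it was -0.0013 ± 0.23 (adjusted p = 0.996) in AAKO, not called. The interaction for that difference was 1.11 ± 0.33 (adjusted p = 0.00864).

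A second Col27a1 probe (mm9 chr4:62953608-62953667) fell as well, with fold changes of -3.74 and -5.73 for fasting in CTRL and AAKO and of -2.89 and -3.15 for CL316243. The probes disagreed on the genotype in fasted mice. The chosen probe was higher in AAKO (0.61 ± 0.23, adjusted p = 0.0268) and the second lower (-2.42, adjusted p = 4.11e-08). The call at the chosen probe was also fragile. Col27a1 was not called between fasted genotypes after normexp correction (0.34) and within either wash batch (0.78 and 0.44). The Col27a1 call between fasted genotypes was also lost on leaving out AAKO fasted replicate 3 or 5 or CTRL fasted replicate 3 alone (0.51 to 0.58). As the mean over its probes, Col27a1 was called lower in fasted AAKO mice (-0.90), and the interaction between fasted and CL316243 was -0.31 and not called, so both values turned in sign. The interaction was not called within either wash batch (1.22 and 0.88).

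Type V chains start and limit the diameter of type I fibrils. Col5a3, the chain of the less common type V molecule, was lower in AAKO mice under both fasting and CL316243. Its probe (mm9 chr9:20574592-20574651, minus strand) ran from 0.61 to 1.29 (median 1.18) in CTRL fed and from 0.42 to 0.90 (median 0.64) in AAKO fed arrays. With fasting the range was -0.54 to 1.71 (median 0.88) in CTRL and -1.31 to -0.38 (median -0.67) in AAKO. Under CL316243 the values were 1.39 to 2.21 (median 1.8) in CTRL and -0.39 to 0.39 (median 0.047) in AAKO. All 6 AAKO CL316243 arrays lay below all their controls, while the fasted groups overlapped through CTRL replicate 2 at -0.54. The genotype difference was -0.43 ± 0.21 (adjusted p = 0.729) in fed, -1.48 ± 0.21 (adjusted p = 5.53e-07) in fasted and -1.82 ± 0.21 (adjusted p = 1.15e-07) in CL316243 mice. Without CTRL fasted replicate 2 it was -1.73 in fasted mice. Within wash batches 1 and 2 it was -1.78 and -1.18 in fasted mice and -1.83 and -1.72 in CL316243 mice, all called. The second probe, whose sequence is printed above, gave -0.98 and -0.75, both called.

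Between fed and CL316243 mice, Col5a3 differed in opposite directions in the genotypes. Against fed mice, it rose in CTRL (0.72 ± 0.21, adjusted p = 0.0118) and fell in AAKO (-0.67 ± 0.21, adjusted p = 0.0135), an interaction of -1.39 ± 0.29 (adjusted p = 0.00169). Col5a3 was not called for CL316243 in CTRL within either wash batch (0.62 and 0.81). For CL316243 in AAKO the call was lost as the mean over its probes (-0.41) and within wash batch 2 (-0.56). Fasted against fed, it fell in AAKO (-1.34 ± 0.21, adjusted p = 1.25e-06) and gave -0.29 ± 0.21 (adjusted p = 0.271) in CTRL, an interaction of -1.05 ± 0.29 (adjusted p = 0.00584). Fasted against CL316243, Col5a3 was lower in CTRL (-1.01 ± 0.21, adjusted p = 0.000231) and in AAKO (-0.67 ± 0.21, adjusted p = 0.00642). The interactions were not called within wash batch 2 (-1.37 for CL316243 and -0.82 for fasting), nor were the fasted against CL316243 differences within wash batch 1 in CTRL (-0.67) and within wash batch 2 in AAKO (-0.81).

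Col5a1, the common partner chain, was not called in any contrast. Its probe (mm9 chr2:27894595-27894654, plus strand) ran from -1.33 to -0.45 (median -1.02) in CTRL fed and from -1.34 to -0.53 (median -0.73) in AAKO fed arrays. In fasted mice it ran from -1.21 to -0.87 (median -0.97) in CTRL and from -1.48 to -0.39 (median -1.19) in AAKO. After CL316243 it ran from -1.32 to -0.63 (median -0.94) in CTRL and from -1.39 to -0.69 (median -1.12) in AAKO, and all groups overlapped. Its genotype difference in fasted mice was -0.11 ± 0.17 (adjusted p = 0.612). Col5a2 was dim, well above background on 1 CTRL fed, 3 AAKO fed, 2 CTRL fasted, 5 AAKO fasted, 0 CTRL CL316243 and 5 AAKO CL316243 arrays. It ran from -6.97 to -5.57 (median -6.48) in CTRL and from -6.33 to -4.0 (median -5.03) in AAKO fasted mice, a difference of 1.23 ± 0.36, adjusted p = 0.00746 without the filter, with 2 of 6 CTRL arrays well above background. Col5a2 was not called between fasted genotypes after normexp correction (0.11) and within wash batch 1 alone (0.52). After CL316243, where no CTRL array was well above background, Col5a2 was at least 1.57-fold higher in AAKO (limma adjusted p = 0.00648 without the filter). In a bound of this kind the dim group is set, array by array, at the higher of its own signal and the lowest signal among probes well above background. Such a bound holds for the main scaling alone. Over the alternatives this log2 fold change of Col5a2 ran from 0.20 to 1.59. Col5a2 was not called after CL316243 within either wash batch (1.32 and 1.59).

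The cartilage-type fibrillar chains Col2a1 and Col11a1 were not well above background on every array, whereas Col11a2 was. Col2a1 was well above background on all 6 CTRL fed and 5 AAKO fed arrays but on 2 CTRL fasted and 1 AAKO fasted arrays. It fell with fasting, with fold changes of -1.08 ± 0.30, adjusted p = 0.0056 without the filter, in CTRL and -0.87 ± 0.30, adjusted p = 0.018 without the filter, in AAKO. It was also lower in fasted than in CL316243 mice (-1.32 ± 0.30, adjusted p = 0.0011 without the filter, in CTRL and -1.12 ± 0.30, adjusted p = 0.00274 without the filter, in AAKO), and all these ranges overlapped. Within wash batch 2 the fasted against fed calls were lost in CTRL (-1.09) and AAKO (-0.95), as was the AAKO call against CL316243 (-0.58). In the authors' deposited table the AAKO changes were -0.19 against fed and -0.25 against CL316243, neither called. Col11a1, a chain of fibrils and their nucleation, ran from -6.11 to -4.76 (median -5.29) in AAKO fed, -4.87 to -3.53 (median -4.31) in AAKO fasted and -4.42 to -4.02 (median -4.19) in AAKO CL316243 arrays. It rose in AAKO with fasting (1.01 ± 0.20, adjusted p = 5.02e-05) and with CL316243 (1.12 ± 0.20, adjusted p = 5.82e-05), where all CL316243 arrays lay above all fed ones. After normexp correction the fasting change was 0.039 and not called, and the CL316243 call was lost within wash batch 2 (0.92). Its fasting change in CTRL was 0.50 ± 0.20 (adjusted p = 0.041). Col11a1 was not called for fasting in CTRL after normexp correction (0.033), after quantile normalization (0.42), when scaled to the array median (0.43), with no filter on dim probes (0.50), without the wash batch term (0.50), with slide as a factor (0.43) and within either wash batch (0.52 and 0.49). The Col11a1 call for fasting in CTRL was also lost on leaving out CTRL fasted replicate 4, 5 or 6 or CTRL fed replicate 3, 4, 5 or 6 alone (0.41 to 0.50). The Col11a1 interaction for CL316243 was 0.91 ± 0.28 (adjusted p = 0.0329). Col11a1 was not called for this interaction after normexp correction (0.17), in the authors' deposited table (0.28), with no filter on dim probes (0.91), without the wash batch term (0.86), in a fit of its own groups (0.89), with slide as a factor (0.96) and within either wash batch (1.08 and 0.63). The Col11a1 call for this interaction was also lost on leaving out AAKO CL316243 replicate 5 or 6, AAKO fed replicate 1 or 4, CTRL CL316243 replicate 2 or 3 or CTRL fed replicate 1 or 2 alone (0.77 to 0.89). The fold changes of Col11a2 between groups lay between -0.28 and 0.18.

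Col4a1 and Col4a2 encode the chains of the ubiquitous type IV molecule of basement membranes and of the liver sinusoid. Both were highest in AAKO fasted mice. The Col4a1 probe (mm9 chr8:11199009-11199068, minus strand) ran from -1.31 to -0.62 (median -0.86) in CTRL fed and from -1.21 to -0.78 (median -0.93) in AAKO fed arrays. Its fasted range was -0.52 to 1.18 (median -0.014) in CTRL and 0.74 to 1.92 (median 1.28) in AAKO. The CL316243 range was -0.60 to 0.018 (median -0.34) in CTRL and -0.67 to 0.40 (median -0.38) in AAKO. The fasted genotypes overlapped through CTRL replicate 2 at 1.18, and every fasted array lay above every fed array of its genotype. Col4a1 rose with fasting by 0.95 ± 0.19 (adjusted p = 0.000152) in CTRL and 2.21 ± 0.19 (adjusted p = 1.52e-11) in AAKO. The genotypes differed by 1.17 ± 0.19 (adjusted p = 7.62e-06) in fasted mice and by -0.089 ± 0.19 (adjusted p = 0.961) in fed mice, an interaction of 1.26 ± 0.28 (adjusted p = 0.000562). Without CTRL fasted replicate 2 the genotype difference was 1.37 and the CTRL fasting change 0.75, both called. The genotype difference was 1.04 within wash batch 1 and 1.3 within wash batch 2, both called. Within experiment 1, fasted AAKO mice were higher than CL316243 AAKO mice by 1.49 ± 0.20 (adjusted p = 7.49e-08), an interaction of 1.1 ± 0.28 (adjusted p = 0.00243) that was lost within wash batch 1 (0.78).

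CL316243 against fed, Col4a1 rose by 0.56 ± 0.19 (adjusted p = 0.0333) in CTRL and 0.72 ± 0.20 (adjusted p = 0.00468) in AAKO, with no overlap of the groups. Col4a1 was not called for CL316243 in CTRL with no filter on dim probes (0.56), with slide as a factor (0.46) and within either wash batch (0.64 and 0.49). The Col4a1 call for CL316243 in CTRL was also lost on leaving out CTRL CL316243 replicate 1, 2, 5 or 6 or CTRL fed replicate 2 or 5 alone (0.50 to 0.56). In AAKO it was lost within wash batch 2 (0.35).

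The Col4a2 probe (mm9 chr8:11448840-11448899, plus strand) ran from -0.69 to -0.21 (median -0.30) in CTRL fed and from -1.11 to -0.51 (median -0.59) in AAKO fed arrays. With fasting the range was -0.66 to 0.13 (median -0.35) in CTRL and -0.18 to 0.55 (median 0.31) in AAKO. Under CL316243 the values were -0.58 to 0.11 (median -0.29) in CTRL and -0.70 to 0.16 (median -0.45) in AAKO. All AAKO fasted arrays lay above all AAKO fed and all CTRL fed arrays, and the other pairs of groups overlapped. Col4a2 rose with fasting in AAKO (0.93 ± 0.14, adjusted p = 1.33e-06) and gave 0.10 ± 0.14 (adjusted p = 0.613) in CTRL, an interaction of 0.83 ± 0.20 (adjusted p = 0.00194). In fasted mice it was higher in AAKO by 0.52 ± 0.14 (adjusted p = 0.00331). Within wash batch 1 alone neither the interaction (0.66) nor the genotype difference (0.35) was called. Fasted AAKO mice were also higher than CL316243 AAKO mice (0.55 ± 0.15, adjusted p = 0.00151), with an interaction of 0.59 ± 0.20 (adjusted p = 0.0275). Col4a2 was not called against CL316243 in AAKO within wash batch 1 alone (0.33). Col4a2 was not called for the interaction of fasting against CL316243 in a fit of its own groups (0.59), with slide as a factor (0.50) and within wash batch 1 alone (0.27). The Col4a2 call for the interaction of fasting against CL316243 was also lost on leaving out AAKO CL316243 replicate 3 or 4, CTRL CL316243 replicate 6 or CTRL fasted replicate 1 alone (0.48 to 0.55). CL316243 against fed AAKO, Col4a2 gave 0.38 ± 0.15 (adjusted p = 0.0462). Col4a2 was not called for CL316243 against fed in AAKO in the authors' deposited table (0.33), with no filter on dim probes (0.38), without the wash batch term (0.34), in a fit of its own groups (0.36) and within either wash batch (0.54 and 0.11). The Col4a2 call for CL316243 against fed in AAKO was also lost on leaving out AAKO CL316243 replicate 5 or 6 or AAKO fed replicate 1, 2, 4 or 5 alone (0.26 to 0.39).

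Other type IV chains did not follow. Col4a5, a chain of a separate type IV molecule, ran from -4.27 to -3.44 (median -3.76) in CTRL fasted and from -5.2 to -3.86 (median -4.53) in AAKO fasted arrays, and was lower in AAKO (-0.68 ± 0.20, adjusted p = 0.00446) with overlapping ranges. Col4a5 was not called between fasted genotypes within wash batch 2 alone (-0.21). In AAKO it was lower in fasted than in CL316243 mice (-0.55 ± 0.20, adjusted p = 0.0163). Col4a5 was not called against CL316243 in AAKO in the authors' deposited table (-0.14), in a fit of its own groups (-0.56) and within wash batch 2 alone (0.053). The Col4a5 call against CL316243 in AAKO was also lost on leaving out AAKO fasted replicate 6 alone (-0.39). Col4a4, dim and well above background on 20 arrays, was higher in fasted than in CL316243 CTRL mice (1.08 ± 0.35, adjusted p = 0.0239 without the filter), where 5 and 1 of 6 arrays were well above background. Col4a4 was not called against CL316243 in CTRL after normexp correction (0.02) and within either wash batch (0.93 and 1.22). The Col4a4 call against CL316243 in CTRL was also lost on leaving out CTRL CL316243 replicate 1 alone (0.89). Col4a3 was well above background on 1 array and Col4a6 on 13, so neither was tested.

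**Figure D5:**
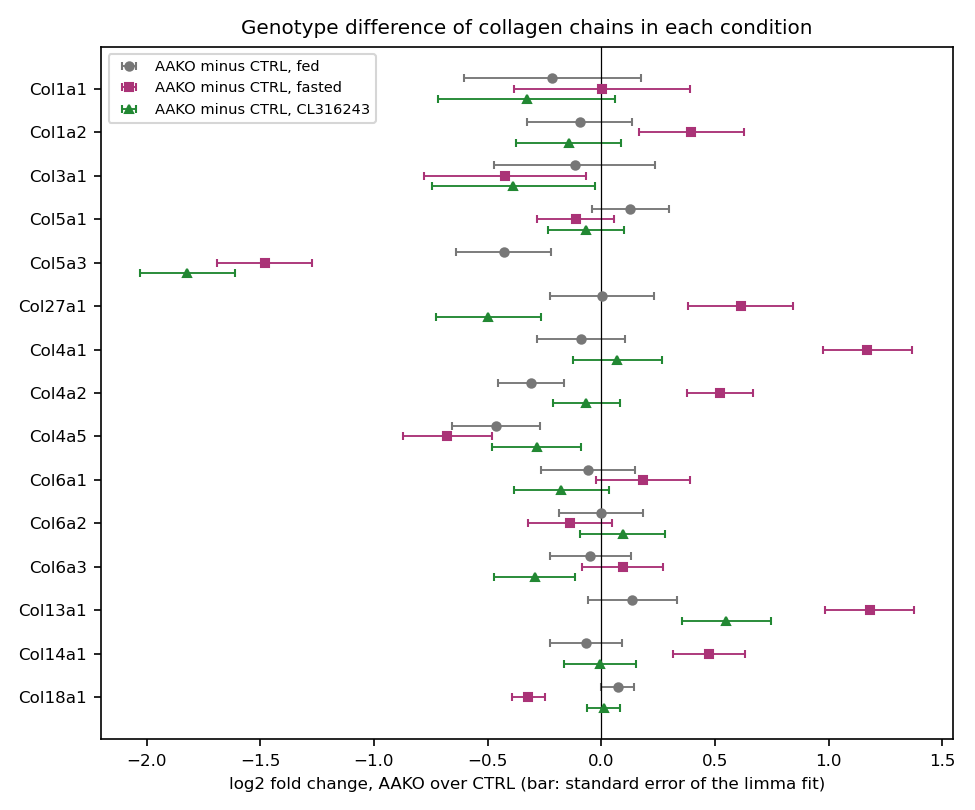
Log2 fold change of AAKO over CTRL (x axis, with the standard error of the limma fit as bars) for 15 collagen genes (rows) in fed (grey circles), fasted (purple squares) and CL316243 mice (green triangles). Col4a1, Col4a2 and Col13a1 lie above 0 in fasted mice, Col5a3 lies at -1.48 in fasted and -1.82 in CL316243 mice, and none of the fed differences was called.

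Col18a1 and Col15a1 encode the multiplexins of basement membranes, whose C-terminal fragments include endostatin. The Col18a1 probe (mm9 chr10:76515820-76515879, minus strand) ran from 6.92 to 7.03 (median 6.98) in CTRL fed and from 6.93 to 7.12 (median 7.09) in AAKO fed arrays. In fasted mice it ran from 6.78 to 7.22 (median 7.02) in CTRL and from 6.58 to 6.83 (median 6.67) in AAKO. After CL316243 it ran from 6.84 to 7.39 (median 7.15) in CTRL and from 6.96 to 7.25 (median 7.18) in AAKO. All AAKO fasted arrays lay below all AAKO fed and AAKO CL316243 arrays, and the fasted genotypes overlapped through CTRL replicate 2 at 6.78. Col18a1 fell with fasting in AAKO (-0.36 ± 0.071, adjusted p = 4.24e-05) and gave 0.027 ± 0.071 (adjusted p = 0.795) in CTRL, an interaction of -0.39 ± 0.10 (adjusted p = 0.00278). The fasted genotypes differed by -0.32 ± 0.071 (adjusted p = 0.000356), or -0.36 without CTRL fasted replicate 2. Within wash batch 2 neither the interaction (-0.24) nor the genotype difference (-0.17) was called. Fasted against CL316243, it was lower in AAKO (-0.47 ± 0.072, adjusted p = 1.18e-06), with an interaction of -0.33 ± 0.10 (adjusted p = 0.0115). Col18a1 was not called for that interaction after quantile normalization (-0.20), in the authors' deposited table (-0.22) and within either wash batch (-0.37 and -0.33).

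Col15a1 was dim, and no AAKO fasted array was well above background, against 2 CTRL fed, 4 AAKO fed, 4 CTRL fasted, 6 CTRL CL316243 and 6 AAKO CL316243 arrays. It ran from -6.78 to -5.36 (median -5.56) in CTRL fed, -6.64 to -5.05 (median -5.42) in CTRL fasted and -4.99 to -4.23 (median -4.75) in CTRL CL316243 arrays. In AAKO it ran from -6.41 to -4.73 (median -5.38) in fed, -7.09 to -5.76 (median -6.13) in fasted and -5.42 to -4.87 (median -4.9) in CL316243 arrays. The CTRL CL316243 arrays lay above all other CTRL arrays. Col15a1 rose from fed to CL316243 in CTRL (1.19 ± 0.28, adjusted p = 0.00408 without the filter) and was lower in fasted than in CL316243 CTRL mice (-1.0 ± 0.28, adjusted p = 0.00896 without the filter). Col15a1 was not called for CL316243 against fed in CTRL after normexp correction (0.16) and within either wash batch (1.17 and 1.21). Neither wash batch alone called the second difference (-0.91 and -1.09). In fasted AAKO mice Col15a1 was at least 1.77-fold lower than after CL316243 (limma adjusted p = 0.000615 without the filter) and at least 1.29-fold lower than in fed mice (adjusted p = 0.0236 without the filter). These bounds hold for the main scaling alone. Over the alternatives the log2 fold changes ran from -1.47 to -0.30 against CL316243 and from -1 to -0.22 against fed mice. Col15a1 was not called for fasting in AAKO with slide as a factor (-0.66) and within either wash batch (-0.66 and -0.92). The Col15a1 call for fasting in AAKO was also lost on leaving out AAKO fasted replicate 1 or AAKO fed replicate 4 alone (-0.65 to -0.62).

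Type VI collagen, a microfibril at the cell surface built from Col6a1, Col6a2 and a longer chain such as Col6a3, had few calls. Col6a1 (mm9 chr10:76171538-76171597, minus strand) ran from -0.095 to 0.45 (median 0.15) in CTRL fed and from -0.11 to 0.45 (median 0.0024) in AAKO fed arrays. Its fasted range was -0.25 to 0.30 (median -0.022) in CTRL and -0.54 to 0.81 (median 0.33) in AAKO. The CL316243 range was -0.23 to 0.58 (median 0.083) in CTRL and -0.59 to 0.78 (median -0.19) in AAKO. Its groups overlapped and it was called nowhere. Col6a2 (mm9 chr10:76058931-76058990, minus strand) had medians of -3.02, -3.48 and -3.05 in CTRL fed, fasted and CL316243 mice, and of -2.98, -3.46 and -3.15 in AAKO. In AAKO it fell with fasting (-0.47 ± 0.18, adjusted p = 0.0267) and was lower in fasted than in CL316243 mice (-0.56 ± 0.19, adjusted p = 0.00975). Col6a2 was not called for fasting in AAKO in the authors' deposited table (-0.26), as the mean over its probes (-0.17) and within wash batch 2 alone (-0.22). The Col6a2 call for fasting in AAKO was also lost on leaving out AAKO fasted replicate 3 or 6 or AAKO fed replicate 6 alone (-0.44 to -0.36). Col6a2 was not called against CL316243 in AAKO in the authors' deposited table (-0.27), as the mean over its probes (0.073), in a fit of its own groups (-0.57) and within wash batch 2 alone (0.25). As the mean over its probes and within wash batch 2, that last difference had the opposite sign. Col6a3 (mm9 chr1:92663663-92663722, minus strand) had medians of -0.77, -1.23 and -0.63 in CTRL fed, fasted and CL316243 mice, and of -0.81, -1.1 and -1.05 in AAKO. In CTRL it fell with fasting (-0.48 ± 0.18, adjusted p = 0.0286) and was lower in fasted than in CL316243 mice (-0.58 ± 0.18, adjusted p = 0.0102). Col6a3 was not called for fasting in CTRL in the authors' deposited table (-0.39), as the mean over its probes (-0.30), with slide as a factor (-0.46) and within wash batch 1 alone (-0.39). The Col6a3 call for fasting in CTRL was also lost on leaving out CTRL fasted replicate 1 or 2 or CTRL fed replicate 4 or 6 alone (-0.45 to -0.40). Col6a3 was not called against CL316243 in CTRL within wash batch 1 alone (-0.49). Col6a5, a further long chain, was well above background on 29 arrays and called in no contrast.

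Col13a1, a transmembrane collagen of cell adhesion sites, was highest in AAKO fasted mice and lowest after CL316243. Its probe (mm9 chr10:61301277-61301336, minus strand) ran from -0.98 to 0.096 (median -0.44) in CTRL fed and from -0.50 to -0.13 (median -0.25) in AAKO fed arrays. With fasting the range was -0.71 to 0.93 (median 0.25) in CTRL and 1.27 to 1.69 (median 1.31) in AAKO. Under CL316243 the values were -2.36 to -1.05 (median -1.73) in CTRL and -1.43 to -0.90 (median -1.3) in AAKO. All AAKO fasted arrays lay above all other arrays of the 36, and in each genotype the CL316243 arrays lay below all fed and fasted ones. Within experiment 1, Col13a1 was higher in fasted than in CL316243 mice by 2.01 ± 0.20 (adjusted p = 1.65e-09) in CTRL and 2.64 ± 0.20 (adjusted p = 6.08e-13) in AAKO. It rose with fasting by 0.64 ± 0.20 (adjusted p = 0.00814) in CTRL and 1.69 ± 0.20 (adjusted p = 5.77e-09) in AAKO, an interaction of 1.05 ± 0.28 (adjusted p = 0.00359). With CL316243 it fell, with fold changes of -1.37 ± 0.20 (adjusted p = 6e-06) in CTRL and -0.95 ± 0.20 (adjusted p = 0.000335) in AAKO. The genotypes differed by 1.18 ± 0.20 (adjusted p = 7.3e-06) in fasted mice, or 1.3 without CTRL fasted replicate 2, and by 0.55 ± 0.20 (adjusted p = 0.0383) after CL316243. Col13a1 was not called after CL316243 after normexp correction (0.35), when scaled to the array median (0.52), in the authors' deposited table (0.40), with no filter on dim probes (0.55), without the wash batch term (0.52) and within wash batch 2 alone (0.23). The Col13a1 call after CL316243 was also lost on leaving out AAKO CL316243 replicate 2, 4, 5 or 6 or CTRL CL316243 replicate 1, 4, 5 or 6 alone (0.44 to 0.57).

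The fasting change of Col13a1 in CTRL was not called in a fit of its own groups (0.64) and within wash batch 2 alone (0.34), nor was the interaction within wash batch 1 (0.52) or the CL316243 change in AAKO within wash batch 2 (-0.89). A second probe of Col13a1 (mm9 chr10:61330216-61330585) gave a fasted genotype difference of 1.16, called, and a further one (mm9 chr10:61313890-61313949) gave -0.07, not called. The other transmembrane chain that passed, Col17a1 of hemidesmosomes, had group medians between -4.46 and -4.29 and no call.

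Of the FACITs, Col14a1, a fibril surface collagen, was lowest after CL316243. Its probe, printed above, ran from -1.96 to -1.34 (median -1.79) in CTRL fed and from -2.0 to -1.68 (median -1.81) in AAKO fed arrays. In fasted mice it ran from -2.51 to -1.86 (median -2.12) in CTRL and from -2.13 to -1.35 (median -1.64) in AAKO. After CL316243 it ran from -3.02 to -2.0 (median -2.46) in CTRL and from -2.87 to -1.92 (median -2.63) in AAKO. All CTRL CL316243 arrays lay below all CTRL fed arrays, and the other ranges overlapped. CL316243 against fed, it fell in CTRL (-0.70 ± 0.16, adjusted p = 0.0015) and in AAKO (-0.64 ± 0.16, adjusted p = 0.00242). In fasted mice it was higher in AAKO by 0.47 ± 0.16 (adjusted p = 0.0139), and AAKO fasted mice were above AAKO CL316243 mice by 0.79 ± 0.16 (adjusted p = 7.28e-05). These calls were lost within a single wash batch: -0.51 in batch 2 for CL316243 in CTRL, and -0.47 for CL316243 in AAKO, 0.37 for the fasted genotypes and 0.44 for fasted against CL316243 AAKO in batch 1. With fasting it was -0.39 ± 0.16 (adjusted p = 0.049) in CTRL. Col14a1 was not called for fasting in CTRL in the authors' deposited table (-0.29), with no filter on dim probes (-0.39), without the wash batch term (-0.39), with slide as a random block (-0.38) and within either wash batch (-0.41 and -0.36). The Col14a1 call for fasting in CTRL was also lost on leaving out CTRL fasted replicate 1, 3 or 5 or CTRL fed replicate 1, 2, 3, 4 or 6 alone (-0.41 to -0.32).

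Col12a1, a related fibril surface collagen, was dim in CTRL fed mice, with 1 of 6 arrays well above background, against 6 CTRL fasted and 6 CTRL CL316243 arrays. It ran from -7.59 to -4.58 (median -5.66) in CTRL fed, -4.5 to -4.0 (median -4.25) in CTRL fasted and -4.71 to -3.53 (median -4.26) in CTRL CL316243 arrays. In AAKO it ran from -5.13 to -4.54 (median -4.75) in fed, -5.37 to -4.34 (median -4.59) in fasted and -6.53 to -3.82 (median -4.43) in CL316243 arrays. In CTRL it was higher than fed by 1.54 ± 0.37 (adjusted p = 0.000856) after fasting, without overlap, and by 1.58 ± 0.37 (adjusted p = 0.00183) after CL316243. Col12a1 was not called for fasting in CTRL after normexp correction (0.14) and within wash batch 1 alone (1.69). Within wash batch 1 the CL316243 change was not called either (1.66). In AAKO the changes were 0.11 ± 0.37 (adjusted p = 0.806) and 0.14 ± 0.37 (adjusted p = 0.814), not called, and the fasting interaction was -1.43 ± 0.52 (adjusted p = 0.0314). Col12a1 was not called for this interaction within wash batch 1 alone (-1.52). The Col12a1 call for this interaction was also lost on leaving out AAKO fasted replicate 3, CTRL fasted replicate 6 or CTRL fed replicate 1 or 2 alone (-1.37 to -1.07). Col20a1 was lower in fasted than in CL316243 AAKO mice (-0.70 ± 0.25, adjusted p = 0.0149). Col20a1 was not called against CL316243 in AAKO in the authors' deposited table (-0.33) and within wash batch 2 alone (-0.17). The Col20a1 call against CL316243 in AAKO was also lost on leaving out AAKO fasted replicate 3 alone (-0.53). Col9a1, Col9a2, Col16a1 and Col22a1 were called in no contrast, with fasted genotype differences of 0.023, 0.017, 0.26 and -0.15.

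Col7a1 and the short chains Col8a1 and Col8a2 were called in contrasts of fasted AAKO mice, and their interactions with genotype were not called. Col7a1, the anchoring fibril collagen of the skin, had medians of -2.15 in AAKO fed, -2.42 in AAKO fasted and -2.12 in AAKO CL316243 mice. It was lower in fasted AAKO mice than in fed (-0.31 ± 0.10, adjusted p = 0.0107, no overlap) and CL316243 AAKO mice (-0.32 ± 0.10, adjusted p = 0.00898). Col7a1 was not called for fasting in AAKO in the authors' deposited table (-0.18) and within wash batch 2 alone (-0.22). Col7a1 was not called against CL316243 in AAKO in the authors' deposited table (-0.12) and within wash batch 1 alone (-0.19). Col8a1 and Col8a2 encode the short chains of type VIII, a network collagen of vessel walls. Col8a1 fell with fasting in AAKO (-0.73 ± 0.27, adjusted p = 0.02). Col8a1 was not called for fasting in AAKO within wash batch 1 alone (-0.76). The Col8a1 call for fasting in AAKO was also lost on leaving out AAKO fasted replicate 3 or 6 or AAKO fed replicate 6 alone (-0.63 to -0.55). Col8a2, well above background on 25 arrays, differed between fasted and fed AAKO mice by -0.83 ± 0.34, adjusted p = 0.0515 without the filter, and was lower in fasted than in CL316243 AAKO mice (-0.90 ± 0.34, adjusted p = 0.0377 without the filter). It was well above background on 6 AAKO fed, 4 AAKO fasted and 5 AAKO CL316243 arrays. Col8a2 was not called for fasting in AAKO in the authors' deposited table (-0.08), with no filter on dim probes (-0.83), in a fit of its own groups (-0.83) and within either wash batch (-1.04 and -0.61). The Col8a2 call for fasting in AAKO was also lost on leaving out AAKO fasted replicate 3 or 5 or AAKO fed replicate 1, 4 or 5 alone (-0.82 to -0.52). Col8a2 was not called against CL316243 in AAKO in the authors' deposited table (-0.13), in a fit of its own groups (-0.90) and within either wash batch (-1.05 and -0.69). The Col8a2 call against CL316243 in AAKO was also lost on leaving out AAKO fasted replicate 3 or 5 alone (-0.69 to -0.56). Col26a1, which stands outside these classes, had fold changes between -0.16 and 0.12.

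The enzymes that act on collagen chains were described from lists drawn up from general knowledge. Of 18 genes for folding and hydroxylation, which prepare the chains in the endoplasmic reticulum, 10 fell and 1 rose with fasting in CTRL, and 10 fell and 2 rose in AAKO, where 20.9% and 22.4% of all genes were called higher and lower in CTRL and 27.8% and 35.7% in AAKO. With CL316243 8 fell in CTRL and 7 in AAKO, and 0 rose in either (unadjusted p under 0.05 for 10 and 10 genes in limma), against 12.8% of all genes called lower in CTRL and 15.7% in AAKO. The lowest was P4ha1, the catalytic subunit of prolyl 4-hydroxylase, whose level ran from -1.22 to 0.12 (median -0.51) in CTRL fed and -2.86 to -2.37 (median -2.6) in CTRL fasted arrays. It fell by 2.08 ± 0.19 with fasting in CTRL (adjusted p = 1.51e-10) and by 2.25 ± 0.19 in AAKO (adjusted p = 4.44e-12). With CL316243 it fell by 1.69 ± 0.19 and 1.74 ± 0.19. The median fold change of the list with fasting was -0.47 in CTRL and -0.52 in AAKO, against -0.024 and -0.088 over all genes. Between fasted genotypes 5 were higher in AAKO, Colgalt2 most (1.22 ± 0.25), and 3 lower, P3h4 most (-0.73 ± 0.18), against 21.3% and 28.0% of all genes. Colgalt2 was not called within wash batch 1 alone (0.74), and P3h4 was not called as the mean over its probes (-0.40) and within wash batch 1 alone (-0.20). After normexp correction, whose offset of 50 is added before the log and makes fold changes smaller, P4ha1 gave -1.37 and -1.45 with fasting and Colgalt2 0.21 between fasted genotypes, all called.

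Of 11 tested genes for propeptide removal and cross-linking, 3 rose and 1 fell with fasting in CTRL, and 3 rose and 3 fell in AAKO (background 20.9% and 22.4% in CTRL and 27.8% and 35.7% in AAKO). Lox, lysyl oxidase, was highest (1.82 ± 0.35 in CTRL and 2.75 ± 0.35 in AAKO). Its change was 0.16, not called, in CTRL and 0.31 in AAKO after normexp correction, and 0.57 and 0.87, both called, in the authors' deposited table. Pcolce2, a procollagen C-proteinase enhancer, was lowest (-1.15 ± 0.35 and -1.82 ± 0.35), and not called in CTRL within wash batch 1 alone (-0.70). Between fasted genotypes 3 were higher in AAKO, Adamts14 most (1.32 ± 0.16), and 3 lower, Loxl4 most (-1.44 ± 0.36, or -0.33 after normexp correction and -0.47 in the authors' deposited table, both called), against 21.3% and 28.0% of all genes. Of 9 tested genes for turnover, 4 were higher and 0 lower in fasted AAKO than in fasted CTRL mice, with Mmp8, the collagenase of neutrophils, highest (2.08 ± 0.47, not called within wash batch 2 alone (2.01)). The same background of 21.3% and 28.0% applies. With fasting 1 rose (Mmp14, 0.89 ± 0.16) and 2 fell in CTRL, and 5 rose and 1 fell in AAKO (Timp1, an inhibitor of metalloproteinases, -0.93 ± 0.12), against the fasting background above. With CL316243 Timp3 was lowest (-1.38 ± 0.16 in CTRL and -1.04 ± 0.16 in AAKO). As the mean over its probes Timp3 gave -0.86, called, in CTRL and -0.48, not called, in AAKO.

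Of 7 collagen receptors, 3 rose and 0 fell with fasting in CTRL, and 2 rose and 2 fell in AAKO (background 20.9% and 22.4% in CTRL and 27.8% and 35.7% in AAKO). Itga2, the alpha subunit of a collagen-binding integrin, rose by 3.85 ± 0.36 (adjusted p = 4.07e-10) in CTRL and 2.66 ± 0.36 (adjusted p = 1.31e-07) in AAKO. These changes were 0.51, called, and 0.10, not called, after normexp correction, and 1.26 and 0.63, both called, in the authors' deposited table. Between fasted genotypes Itga2 was lowest (-1.34 ± 0.36) and Ddr1, a collagen receptor kinase, was highest (0.76 ± 0.20) among 3 lower and 1 higher (background 28.0% lower and 21.3% higher). Itga2 was not called in a fit of its own groups (-1.34) and within wash batch 1 alone (-0.04), and Ddr1 was not called within wash batch 1 alone (0.37). Of 4 small proteoglycans, 2 were higher and 0 lower in fasted AAKO than in fasted CTRL mice, Lum most (0.74 ± 0.16), against the genotype background above. With CL316243 0 rose and 2 fell in each genotype, against 12.8% of all genes called lower in CTRL and 15.7% in AAKO. With fasting 1 rose and 1 fell in each genotype, against the fasting background above. The riser was Dcn, by 0.38 ± 0.11 in CTRL and 0.74 ± 0.11 in AAKO. The Dcn change in CTRL was not called within either wash batch (0.42 and 0.33). Of 7 upstream signals, 2 rose and 1 fell with fasting in CTRL and 3 rose and 2 fell in AAKO, against the same background. Pdgfra, a receptor of mesenchymal cells, rose most (1.2 ± 0.13 and 1.71 ± 0.13), Tgfb1 was lowest in CTRL (-0.54 ± 0.17) and Pdgfb in AAKO (-1.16 ± 0.19). Between fasted genotypes Tgfb3 was highest (0.97 ± 0.27) and Pdgfb lowest (-0.73 ± 0.19). Ccn2, connective tissue growth factor, fell most with CL316243 in CTRL (-1.47 ± 0.26). These values were called in limma over all 36 arrays. Tgfb1 was not called as the mean over its probes (-0.52) and within wash batch 1 alone (-0.32), Tgfb3 within wash batch 1 alone (0.74), Pdgfb between fasted genotypes within wash batch 2 alone (-0.25) and Ccn2 within wash batch 2 alone (-1.13).

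Markers of the cells that a liver sample holds moved with some of these groups, and their part in the collagen results was not tested. The background shares of all genes called higher and lower were 21.3% and 28.0% between fasted genotypes, 20.9% and 22.4% with fasting in CTRL, 27.8% and 35.7% with fasting in AAKO, 10.4% and 12.8% with CL316243 in CTRL and 15.7% and 15.7% with CL316243 in AAKO. No marker was below background on every array. The summed level of a list is the log2 of the sum of its signals, so its brightest probes weigh most. Hepatocyte markers were the summed level that varied least, from 11.6 to 12.1 over all groups, but single hepatocyte markers moved. Of 6, 1 was higher and 4 lower in fasted AAKO than in fasted CTRL mice. With fasting 2 rose and 1 fell in CTRL, and 1 rose and 4 fell in AAKO. With CL316243 0 rose and 1 fell in CTRL, and 0 were called in AAKO. Beside Col4a1 and Col4a2, 2 of 6 endothelial markers were higher and 0 lower in fasted AAKO than in fasted CTRL mice, Lyve1 most (1.82 ± 0.27). Their summed level ran from 5.02 to 5.62 in CTRL fed, 5.32 to 5.6 in AAKO fed, 4.34 to 5.43 in CTRL fasted, 5.07 to 5.46 in AAKO fasted, 4.06 to 5.0 in CTRL CL316243 and 4.64 to 5.21 in AAKO CL316243 arrays. Lyve1 also rose with fasting, by 1.0 ± 0.27 in CTRL and 2.53 ± 0.27 in AAKO, while Clec4g fell (-0.89 ± 0.20 and -0.71 ± 0.20). In CTRL Lyve1 was not called in a fit of its own groups (1.0) and within wash batch 2 alone (0.91), and Clec4g was not called as the mean over its probes (-0.31) and within wash batch 1 alone (-0.59). With CL316243, Col4a1 rose and Col13a1 and Col14a1 fell in both genotypes, and Col15a1 rose in CTRL. Beside these changes, 5 of 6 endothelial markers fell with CL316243 in CTRL and 3 in AAKO, and 5 of 6 Kupffer cell markers fell in each genotype. The chosen probe of Col3a1 fell with fasting in both genotypes, whereas Col1a1 was not called for fasting in either. Beside them, 0 of 4 myofibroblast markers rose and 1 fell with fasting in CTRL, as in AAKO, the fall being that of Acta2 (-0.86 ± 0.18 and -0.70 ± 0.18). As the mean over its probes Acta2 gave -0.40 and -0.59, neither called, and in CTRL the call was lost within wash batch 1 (-0.81). Their summed level ran from 3.2 to 3.72 in CTRL fed, 3.22 to 3.77 in AAKO fed, 3.01 to 3.87 in CTRL fasted, 2.79 to 3.44 in AAKO fasted, 2.99 to 3.68 in CTRL CL316243 and 3.0 to 4.43 in AAKO CL316243 arrays.

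Of 8 stellate cell markers, 3 were higher and 2 lower in fasted AAKO than in fasted CTRL mice, with Reln highest (0.50 ± 0.15, but called lower at -1.14 as the mean over its probes) and Ngfr lowest (-1.8 ± 0.25). With fasting 2 rose and 1 fell in CTRL and 3 rose and 3 fell in AAKO, Hand2 rising most (0.67 ± 0.13 and 1.28 ± 0.13). With CL316243 1 rose and 3 fell in CTRL, and 2 fell in AAKO. Their summed level ran from 5.16 to 5.66 in CTRL fed, 5.14 to 5.53 in AAKO fed, 5.31 to 5.85 in CTRL fasted, 5.8 to 6.04 in AAKO fasted, 4.23 to 5.26 in CTRL CL316243 and 4.85 to 5.34 in AAKO CL316243 arrays. Ecm1 had by far the highest signal of the list, so this level mostly follows that gene. The mean of Ecm1 was 5.45 in CTRL fasted and 5.77 in AAKO fasted arrays. Between fasted genotypes the median fold change of the 8 stellate cell markers was -0.23, against -0.041 over all genes. Of 5 portal fibroblast or mesothelial markers 1 was called between fasted genotypes, Eln (-0.93 ± 0.30, not called within wash batch 2 alone (-0.77)). Of 6 Kupffer cell markers 2 fell with fasting in CTRL and 4 in AAKO, Adgre1 most (-1.17 ± 0.37, not called within wash batch 1 alone (-0.66), and -1.55 ± 0.37). Their summed level ran from 5.13 to 6.3 in CTRL fed, 5.8 to 6.66 in AAKO fed, 4.56 to 6.24 in CTRL fasted, 3.9 to 5.91 in AAKO fasted, 3.94 to 5.65 in CTRL CL316243 and 5.02 to 5.65 in AAKO CL316243 arrays. Of 3 neutrophil markers 2 were called higher and 0 lower in fasted AAKO mice, S100a8 most (3.6 ± 1.02, not called within wash batch 2 alone (4.39)). The remaining marker had a fold change below 0, with an unadjusted p under 0.05 in limma and no call. The summed level of the 3 markers ran from -0.18 to 5.63 in CTRL fasted and 2.48 to 6.3 in AAKO fasted arrays. Of 3 cholangiocyte markers Krt19 was lower in fasted AAKO mice (-0.76 ± 0.17), of 3 lymphocyte markers Cd3e was lower (-0.25 ± 0.085), and of 3 adipocyte markers Plin1 was higher (0.92 ± 0.19) and Adipoq lower (-1.04 ± 0.34). Cd3e was not called in the authors' deposited table (-0.21), as the mean over its probes (-0.14), in a fit of its own groups (-0.25) and within wash batch 2 alone (-0.087), nor on leaving out AAKO fasted replicate 3 or CTRL fasted replicate 5 alone (-0.20 to -0.18). Adipoq was not called within wash batch 2 alone (-0.96).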

How the data were processed

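Per the file headers and the submitters' processing notes, which also name limma, spot intensity was extracted with Agilent Feature Extraction 10.10.1.1. The processed intensity had a fitted background subtracted, per the file headers. The authors also deposited log2 values whose normalization they do not state, used here as an alternative.

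The log2 processed intensity was scaled to the 75th percentile of each array, outlier spots (2701 over all arrays) were left out, and spots of a probe were averaged. Symbols came from the files, or for 32994 of 56605 probes through RefSeq accessions. Probe positions are those of the files (mm9); exons and UTRs were not assigned. Genes well above background on at least 5 of 6 arrays of a group were tested in 1 fit of 6 group means and the wash batch (limma 3.58.1, R 4.3.3, data.table package version 1.17.8), two-sided, and the fit was checked on simulated data. Interactions compare the genotype difference between conditions. For a group with no array well above background, a bound was given, from means over the 6 arrays.

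Named in full were the major chains of types I, III, IV, V, VI, XIV, XV and XVIII, and per contrast the called collagens with the 5 highest and 5 lowest fold changes; of the pathway and marker lists, counts and the highest and lowest called gene. The members and lists were chosen with earlier results of these data known. Alternatives were normexp background correction (offset 50), quantile and median scaling, the authors' table, no filter, the mean over probes, wash batch, slide and replicate number in the model, fewer groups, single wash batches, and each array left out.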

Additional observations from a re-analysis of the deposited data

Results flagged for a closer look

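Among 24 collagen genes well above background on every array, 144 groups of 6 arrays were examined for an array far from the others of its group, and 9 were found. An array was flagged by its gap to the next array relative to the range of its group. Chance gives about 1 in 20 groups if the values are independent and normal, which was not tested. The genes also share the same arrays. CTRL fasted replicate 2 was highest for Col4a1 at 1.18, with the next array at 0.068. AAKO fed replicate 3 was lowest for Col5a1 at -1.34, with the next at -0.81. AAKO fasted replicate 1 was lowest for Col5a3 at -1.31, with the next at -0.71. For Col9a2, CTRL fasted replicate 5 was highest at -2.71 and AAKO fasted replicate 2 lowest at -3.3. CTRL CL316243 replicate 5 was lowest for Col16a1 at -1.27, and CTRL fed replicate 5 was highest for Col17a1 at -3.88. AAKO CL316243 replicate 6 was lowest for Col18a1 at 6.96, with the next at 7.14. AAKO fasted replicate 3 was lowest for Col26a1 at -4.71, with the next at -4.35.

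The genotype difference itself differed between conditions for 8 collagen genes, by an interaction test in limma. Between fasted and fed mice the interactions were 1.26 for Col4a1, 0.829 for Col4a2, 1.05 for Col13a1, -1.05 for Col5a3, -1.43 for Col12a1 and -0.393 for Col18a1. Between CL316243 and fed mice they were -1.39 for Col5a3 and 0.909 for Col11a1. Between fasted and CL316243 mice they were 1.1 for Col4a1, 0.586 for Col4a2, 1.11 for Col27a1 and -0.332 for Col18a1. A cause of these differences was not tested.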

How the results depend on the processing

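Of 85 called values of collagen genes, 26 kept their direction and their call under every alternative, 55 did so under all alternatives other than leaving out an array or a wash batch, and 5 changed sign under at least 1. For most counts the alternatives gave a number within 1.5 times. The exceptions follow, and their cause was not tested. Where a wash batch or an array was left out, the fit also held fewer arrays. The genotype comparison after CL316243 gave 5 calls with the mean over all probes. Fasted against fed gave 5 in CTRL within wash batch 1 and 9 in AAKO within wash batch 2, and CL316243 against fed CTRL gave 3 within wash batch 1 and 3 within wash batch 2. Fasted against CL316243 gave 4 in CTRL within wash batch 1 and 24 in AAKO after normexp correction. The interaction of fasted and fed gave 3 within wash batch 1. The interaction of CL316243 and fed gave 1 after normexp correction, in the authors' table, with no filter, without the wash batch term, in a fit of its own groups and within wash batch 1, and 0 within wash batch 2 (limma, 9 at an unadjusted p under 0.05). The interaction of fasted and CL316243 gave 1 within wash batch 1 and 8 within wash batch 2.

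Values that changed sign were those of Col27a1 between fasted genotypes (-0.904) and in the fasted and CL316243 interaction (-0.312), Col6a2 in fasted against CL316243 AAKO (0.0731) and the marker Reln between fasted genotypes (-1.14), all with the mean over probes. Within wash batch 2, fasted against CL316243 AAKO turned for Col1a1 (0.543), Col4a5 (0.0529) and Col6a2 (0.253). The r of Col6a1 with Col6a2 was 0.399 within wash batch 2, and that of Col15a1 with Col18a1 was -0.114 without the 2 arrays farthest on the x axis; the correlation alternatives were chosen after seeing the data.

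Leaving out each array in turn gave 0 to 0 calls between fed genotypes, 8 to 10 between fasted genotypes and 2 to 4 after CL316243. Fasted against fed gave 6 to 9 in CTRL and 11 to 16 in AAKO, CL316243 against fed 6 to 7 and 6 to 8, and fasted against CL316243 9 to 11 and 13 to 16. The interactions gave 5 to 8 for fasted and fed, 1 to 3 for CL316243 and fed, and 3 to 6 for fasted and CL316243. The replicate numbers did not pair the arrays: deviations of same-numbered arrays had a median correlation of 0.0028 over 90 pairs (lowest -0.30, highest 0.36). With the replicate number as a block, the interaction of CL316243 and fed gave 1 call, fasted against fed CTRL gave 7, and the other counts were as reported. Under the block Col11a1 (0.50) and Col14a1 (-0.39) for fasting in CTRL and Col11a1 for the interaction of CL316243 and fed (0.91) were not called. Values of several dim probes moved far after normexp correction, and those of Col2a1 and Col8a2 in AAKO moved far in the authors' deposited table. The alternatives were not ranked. Signal over background limits what can be read from Col2a1, Col4a4, Col5a2, Col6a5, Col8a2, Col9a1, Col11a1, Col12a1 and Col15a1, which were not well above background on every array. Of 142 called values of pathway and marker genes over 3550 alternative values, 3309 kept direction and call, 240 lost the call and 1 changed sign.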
